A study of Homo sapiens with 16 samples.

Results

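The leukocyte immunoglobulin-like receptors LILRB1, LILRB2, LILRB3, LILRB4, LILRA2, LILRA5 and LILRA6 and the related receptor LAIR1 were followed in MUTZ-3 cells. The 8 genes were taken by their names from a table of 60623 annotated genes. MUTZ-3 is a human acute myeloid leukaemia line with a rearranged chromosome 3q that drives the transcription factor EVI1, encoded by MECOM, and all libraries came from this 1 line, grown with GM-CSF and medium conditioned by 5637 bladder carcinoma cells. In the first experiment, cells were taken untreated at 0 h or after 12, 24 or 48 h with the vehicle DMSO, the PARP inhibitor olaparib at 10 µM or the PARP inhibitor talazoparib at 1 µM. In the second, cells carried a pLKO.1 lentiviral vector with the non-targeting control shRNA SHC002, abbreviated NTC, or with shEVI1-2531 or shEVI1-2532 against EVI1, and were selected with puromycin and harvested on day 3 or day 6. The names of the deposited tables carry another shRNA number for the shEVI1-2531 libraries than the labels, which were followed here. Each of these 16 conditions is a single RNA-seq library.

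LILR proteins and LAIR1 are surface receptors of myeloid and some lymphoid cells. The inhibitory members carry cytoplasmic ITIM motifs that recruit the phosphatases SHP-1 and SHP-2, while the activating LILRA members have short tails and signal through the Fc receptor gamma chain, encoded by FCER1G. Several of the LILRs bind MHC class I molecules, LAIR1 binds collagens, and the family is best known from monocytes, macrophages, dendritic cells and neutrophils, in which it sets thresholds for activation.

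The inhibitor libraries held 55999673 to 72681943 counts assigned to genes and the knockdown libraries 95523038 to 120716213, so 3 counts, the limit that a count of 0 allows, stood at 0.0249 to 0.0536 CPM. CPM is the count of a gene scaled to a common library total. MECOM was measured at 42.4 and 44.2 CPM in the NTC libraries of days 3 and 6, at 12.3 and 18.5 CPM with shEVI1-2531 and at 4.51 and 4.03 CPM with shEVI1-2532. With DMSO it stood at 51.1, 50.9 and 63.6 CPM at 12, 24 and 48 h, with olaparib at 46.1, 40.8 and 21.0 CPM and with talazoparib at 46.8, 31.4 and 8.54 CPM. The progenitor marker CD34 was between 291 and 765 CPM in DMSO and NTC, while PROM1 of the same list was at no more than 0.581 CPM in any library. Of the markers for other lineages, the B cell genes MS4A1 and PAX5, the natural killer cell genes KLRD1 and NCAM1 and the epithelial genes KRT5 and CDH1 were at or near 0. Other genes of these lists were present, with CD79A at 7.98 to 19.8 CPM, NKG7 at 5.58 to 20.8 CPM and KRT18 at 6.38 to 18.05 CPM, and KRT18 rose by 1.45 on the log2 scale with shEVI1-2532. T cell genes summed to 3.17 to 11.5 CPM. These are bulk libraries, in which more cells that transcribe a gene and more RNA per cell cannot be told apart.

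All 8 genes lie in the leukocyte receptor complex on the long arm of chromosome 19, between chr19:54216278 and 54670359 of GRCh38, a stretch of 454 kb in which 46 genes are listed and 30 had at least 1 count. On the minus strand are LILRB3 (ENSG00000204577, chr19:54216278-54223506), LILRA6 (ENSG00000244482, chr19:54236592-54242791), LILRB2 (ENSG00000131042, chr19:54273821-54281184), LILRA5 (ENSG00000187116, chr19:54307070-54313166) and LAIR1 (ENSG00000167613, chr19:54351384-54370558). On the plus strand are LILRA2 (ENSG00000239998, chr19:54572920-54590287), LILRB1 (ENSG00000104972, chr19:54617158-54637528) and LILRB4 (ENSG00000186818, chr19:54643889-54670359). LILRB3 and LILRA6 lie inside the span of the ribosomal protein gene RPS9, which is on the other strand. They also resemble each other, and 14.3% of all 100-base windows of the longest coding LILRA6 transcript occurred unchanged in a LILRB3 transcript. In the other direction the share was 9.31%. For LILRB1 and LILRB2 it was 3.08% and 3.17%, and for LAIR1, LILRA2, LILRA5 and LILRB4 no window was shared with another LILR or LAIR gene. Levels of LILRB3 and LILRA6 are therefore uncertain to the extent that the counting could exchange their reads.

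The promoters were read because the members moved together, and are from the RefSeq table of GRCh38.p14, which matched 7 of the 8 genes with 13 promoters. LILRA6 was not matched. The 9 letters CTTCCTGTG are an ETS-type core followed by TGTG that was chosen after the sequences had been read. On either strand of the 250 bases before the start they occurred in LILRB3, LILRA2 and LILRB4. These are 3 of 7 genes, or 4 of 13 promoters, and the relatives LILRA1 and LILRB5 held the letters too. Of all 35116 promoters, 0.681% held them, and since the letters were chosen from these sequences, the shares make no test. The stretches around these letters, 5′ to 3′ on the strand of the gene with the letters in capitals, show how closely the flanks match:
LILRB3, chr19:54223079-54223147, minus strand, 140 to 72 bases before the start: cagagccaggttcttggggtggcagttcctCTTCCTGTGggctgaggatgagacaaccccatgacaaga
LILRA2, chr19:54573710-54573778, plus strand, 80 to 12 bases before the start: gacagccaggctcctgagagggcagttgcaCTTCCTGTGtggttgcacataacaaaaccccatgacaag
LILRA1, chr19:54594052-54594120, plus strand, 145 to 77 bases before the start: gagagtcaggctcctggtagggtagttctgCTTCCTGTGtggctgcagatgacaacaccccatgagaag
LILRB4, chr19:54662884-54662912, plus strand, 101 to 73 bases before the start: ggcagtttccCTTCCTGTGggctgctgat

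The first 3 stretches lie in no annotated exon, and the LILRB4 stretch, shown over 29 bases only, overlaps an exon of another LILRB4 transcript. LILRB2 lacked the 9 letters although its promoter was 75.6% identical to that of LILRA2 over 270 aligned columns. LILRA5, the member with the largest fitted change over time and with either shRNA, lacked the 9 letters too. Its promoter held TTGCNNAA, the form of a C/EBP element, and TTCCTC, which is GAGGAA read on the other strand, the core bound by PU.1. Both are in capitals in the 125 bases before its start, which lie in no annotated exon:
LILRA5, chr19:54313167-54313291, minus strand: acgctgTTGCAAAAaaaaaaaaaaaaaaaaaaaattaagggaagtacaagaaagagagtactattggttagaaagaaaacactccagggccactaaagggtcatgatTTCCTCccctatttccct

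Among all promoters, 9.05% held TTGCNNAA and 23.6% held GAGGAA on either strand. GAGGAA occurred in LAIR1, LILRA5, LILRB3 and LILRB4, in 5 of 13 member promoters. TGTGGT, the core bound by RUNX factors, occurred in LAIR1 and LILRA2, in 3 of 13 member promoters against 10.98% of all promoters. AGATAA, the core bound by GATA factors, occurred in LILRB3 alone of the members, in 1 of 13 against 9.17%. In LILRB3 the TTCCTC hit and in LILRA2 the TGTGGT hit overlapped CTTCCTGTG. These matches describe the letters only. LILRB4, which holds the same 9 letters as LILRB3 and LILRA2, had at most 2 counts in any library.

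Per kilobase of exon, the level in untreated cells was highest for LAIR1, at 11.5 CPM per kb, and lower for LILRA2, at 4.71. LILRB3 at 1.16, LILRA6 at 0.995, LILRA5 at 0.901 and LILRB2 at 0.744 CPM per kb were close to each other, and with 1 library their order cannot be set against a spread. LILRB1 had 6 counts, or 0.0174 CPM per kb, and LILRB4 1 count. In the libraries with the highest levels the order was changed for LILRA5. At 48 h of talazoparib LILRA5 stood at 26.6, LAIR1 at 26.1, LILRA2 at 14.6, LILRB3 at 10.6, LILRA6 at 8.81 and LILRB2 at 4.18 CPM per kb. With the length of the longest coding transcript in place of all exons, LAIR1 came first there at 43.0 and LILRA5 second at 34.3 CPM per kb. On day 6 of shEVI1-2532 the order was LAIR1 at 34.0, LILRA2 at 28.9, LILRA5 at 9.19, LILRB3 at 6.57, LILRB2 at 5.49 and LILRA6 at 5.24 CPM per kb.

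The inhibitor experiment asked how the cells changed when PARP was blocked. The inhibitory receptor genes LILRB3 and LILRB2 stayed near their control level at 12 h and stood far above it at 48 h with both compounds. LILRB3 was at 3.73, 2.66 and 3.17 CPM in the DMSO libraries of 12, 24 and 48 h, at 4.79, 7.33 and 23.8 CPM with olaparib and at 5.42, 9.12 and 39.7 CPM with talazoparib. All 6 inhibitor libraries of LILRB3 lay above all 3 DMSO libraries, and the level rose from each time to the next. LILRB2 was at 2.42, 2.24 and 2.28 CPM with DMSO, at 2.98, 5.16 and 9.70 CPM with olaparib and at 2.60, 6.02 and 15.9 CPM with talazoparib. Here the inhibitor and DMSO libraries did not overlap either, but at 12 h the gap was within counting error. How many of all genes had ranges without overlap, here or in the results below, was not counted. Against the DMSO library of 48 h, LILRB3 was 7.51-fold and LILRB2 4.26-fold higher with olaparib, and 12.5-fold and 7.0-fold higher with talazoparib.

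LILRB1, an inhibitory receptor for MHC class I, was close to the detection limit and is given in counts. DMSO libraries held 6, 7 and 1 counts, olaparib libraries 15, 16 and 17, and talazoparib libraries 10, 14 and 24. Each inhibitor library held more than the DMSO library of its time, yet at 12 and 24 h the 95% interval of each log2 ratio, which covers counting error only, included 0. The ratio at 48 h rests on the 1 count in DMSO and was 4.17 on the log2 scale with olaparib, with an interval from 1.49 to 9.55, and 4.77 with talazoparib, with an interval from 2.15 to 10.13. LILRB4, an inhibitory receptor of monocytic cells, had 0 to 2 counts in all 16 libraries and was not detectable above the limit of 3 counts. No change in it could be measured.

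LAIR1, the inhibitory collagen receptor and the most abundant of the 8 in CPM, had the smallest ratio to DMSO at 48 h with each inhibitor. It was at 133, 98.1 and 98.3 CPM with DMSO, at 124, 128 and 144 CPM with olaparib and at 139, 144 and 211 CPM with talazoparib. The DMSO library of 12 h lay above the olaparib libraries of 12 and 24 h, so these groups overlapped. At 48 h LAIR1 was 1.47-fold higher with olaparib and 2.14-fold higher with talazoparib than with DMSO.

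Among the activating receptors, LILRA5 showed the steepest course. It was at 3.19, 3.41 and 3.00 CPM with DMSO at 12, 24 and 48 h, at 5.0, 12.5 and 38.3 CPM with olaparib and at 4.14, 16.2 and 46.7 CPM with talazoparib. The 6 inhibitor libraries lay above the 3 DMSO libraries, and at 48 h the ratio to DMSO was 12.8-fold with olaparib and 15.6-fold with talazoparib. Counting error gave a 95% interval of 3.46 to 3.89 for the first and of 3.75 to 4.18 for the second on the log2 scale. LILRA6 was at 2.06, 2.02 and 2.24 CPM with DMSO, at 2.60, 4.65 and 15.3 CPM with olaparib and at 3.20, 5.49 and 23.9 CPM with talazoparib. Its course ran beside that of LILRB3, its near copy, and at 48 h the ratio was 6.83-fold with olaparib and 10.7-fold with talazoparib.

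LILRA2, an activating receptor that recognises cleaved immunoglobulins, behaved differently at the start. It was at 18.5, 20.9 and 23.1 CPM with DMSO, at 13.99, 19.5 and 40.7 CPM with olaparib and at 16.9, 25.9 and 78.1 CPM with talazoparib. At 12 h both inhibitor libraries were below DMSO, by -0.40 on the log2 scale with olaparib (95% interval -0.53 to -0.28) and by -0.13 with talazoparib (-0.24 to -0.01). At 24 h olaparib was still at -0.10, with an interval that reached 0.00, and at 48 h the ratio was 0.82 with olaparib and 1.76 with talazoparib. LILRA2 was the member whose log2 ratio was negative in more than 1 inhibitor library. The doses of olaparib and talazoparib differ, so no comparison was made between the compounds, and both share the DMSO libraries.

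**Figure D1:**
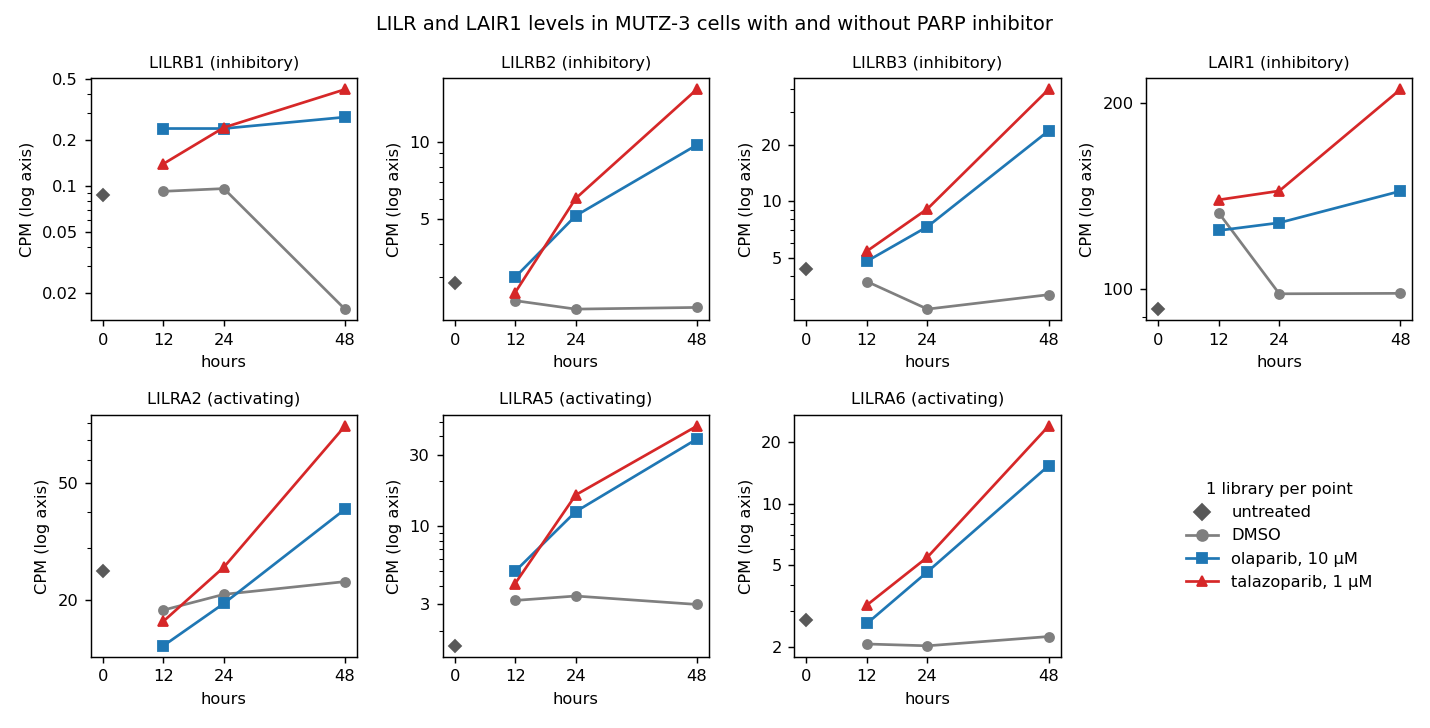
Level of 7 receptor genes in CPM on a log axis against hours of culture, 1 library per point, for untreated cells, DMSO, olaparib and talazoparib. LILRA5, LILRA6, LILRB2 and LILRB3 climbed from 12 to 48 h with either inhibitor while DMSO stayed level, whereas LILRA2 started below DMSO at 12 h.

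In a count model with the time point as a term, the effect of both inhibitors averaged over 12, 24 and 48 h was positive for all 7 members that could be tested, and 0 of 7 were called by edgeR at an adjusted p under 0.05, against a background of 3.16% of 17218 tested genes called higher. Before adjustment, 6 of the 7 were under 0.05 in edgeR, where 6047 of all 17218 tested genes were, in either direction. The mean log2 fold changes were 2.03 ± 0.58 (SE) for LILRA5, 1.92 ± 0.57 for LILRB1, 1.72 ± 0.50 for LILRB3, 1.596 ± 0.46 for LILRA6 and 1.33 ± 0.42 for LILRB2, with edgeR adjusted p from 0.0632 to 0.0733. For LAIR1 the value was 0.49 ± 0.19 (adjusted p = 0.107) and for LILRA2 0.40 ± 0.30 (adjusted p = 0.371). The number of members called depended on the libraries of 12 h. Without the 3 libraries of 12 h, without the DMSO library of 12 h or without the talazoparib library of 12 h it was 6 of 7. The genes called higher rose as well, to 2065 of 16692, 2527 of 17095 and 1806 of 17031 in this order. It was 3 of 7 without the libraries of 48 h or without the DMSO library of 48 h, where 842 of 16653 and 473 of 17050 genes were called higher. DESeq2 called 5 of 7, with 10.7% of all genes called higher. LILRB1 passed the filter on low counts only through inhibitor libraries, so a difference was built into its entry.

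For each inhibitor alone, olaparib called 0 of 7 members, with 0.639% of genes called higher, and talazoparib 0 of 7 with 3.00%. Before adjustment 5 members were under 0.05 in edgeR with olaparib and 6 with talazoparib. Of all 17218 tested genes 3161 and 6245 were, in either direction. DESeq2 called 0 and 6 members, with 3.39% and 11.4% of all genes called higher. Without the 12 h libraries, or without the DMSO library of 12 h, edgeR called 4 members for olaparib and 7 for talazoparib. For olaparib, 850 of 16692 and 1325 of 17095 genes were then called higher, and for talazoparib 2177 and 2700. LILRB1, in the count of 7, passed the filter on low counts only through inhibitor libraries.

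The change of the inhibitor effect with time was then fitted as the change in log2 ratio per doubling of time from 12 to 48 h. It was positive for 6 of 7 members by an adjusted p under 0.05, against a background of 10.0% of genes. DESeq2 also called 6 of 7, with 7.97% of genes called higher. LILRA5 gained 1.76 ± 0.16 (SE) per doubling (adjusted p = 6.7e-26, edgeR), LILRB3 1.52 ± 0.16 (2.0e-19), LILRA6 1.42 ± 0.17 (2.9e-14) and LILRB2 1.23 ± 0.17 (7.6e-11). LILRA2 gained 0.88 ± 0.14 (9.1e-09) and LAIR1 0.53 ± 0.13 (8.1e-04). LILRB1 had a slope of 1.43 ± 0.64 and did not pass (adjusted p = 0.101). This model leaves 2 residual degrees of freedom and takes the spread as common to all genes, so the p-values measure fit to that shared spread, not variation between cultures. Without the DMSO library of 48 h, 3 of the 7 passed, and LILRA6 (0.83), LILRA2 (0.36) and LAIR1 (0.47) lost the call. In that fit 219 of 17050 genes were called higher.

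Between single libraries, LILRB1 entered only through its counts in inhibitor libraries and was left out. The median log2 ratio of the other 6 detected members with olaparib over 12, 24 and 48 h was 0.32, 1.2 and 2.43, where the median of all genes was -0.02, 0.01 and -0.19. With talazoparib it was 0.24, 1.43 and 3.11, against 0.00, -0.03 and -0.27 for all genes. At 12 h, 0 of 6 members were more than 1 log2 unit above DMSO with either compound, where 2.75% of all genes were with olaparib and 3.56% with talazoparib. At 24 h it was 4 of 6 with each compound, where it was 6.61% and 8.73% of all genes. At 48 h, 4 of 6 members with olaparib and 6 of 6 with talazoparib were past this fold, where 10.3% and 13.3% of all genes were.

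Culture without inhibitor also moved LILRA5, from 1.59 CPM in untreated cells to 3.19 CPM with DMSO at 12 h. The log2 ratio of untreated cells to DMSO was -1.01. LAIR1 went from 92.6 to 133 CPM between these libraries, while LILRA2 fell from 25.2 to 18.5 CPM and LILRA6 from 2.70 to 2.06 CPM. The gaps of LILRB2 and LILRB3 were within counting error. Between the DMSO libraries the median of the 6 members was -0.07 from 12 to 24 h and 0.08 from 24 to 48 h on the log2 scale. None of the 6 was more than 1 log2 unit higher at 24 h than at 12 h, at 48 h than at 24 h or with DMSO at 48 h than in untreated cells, where 2.65%, 4.90% and 8.58% of all genes were.

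**Figure D2:**
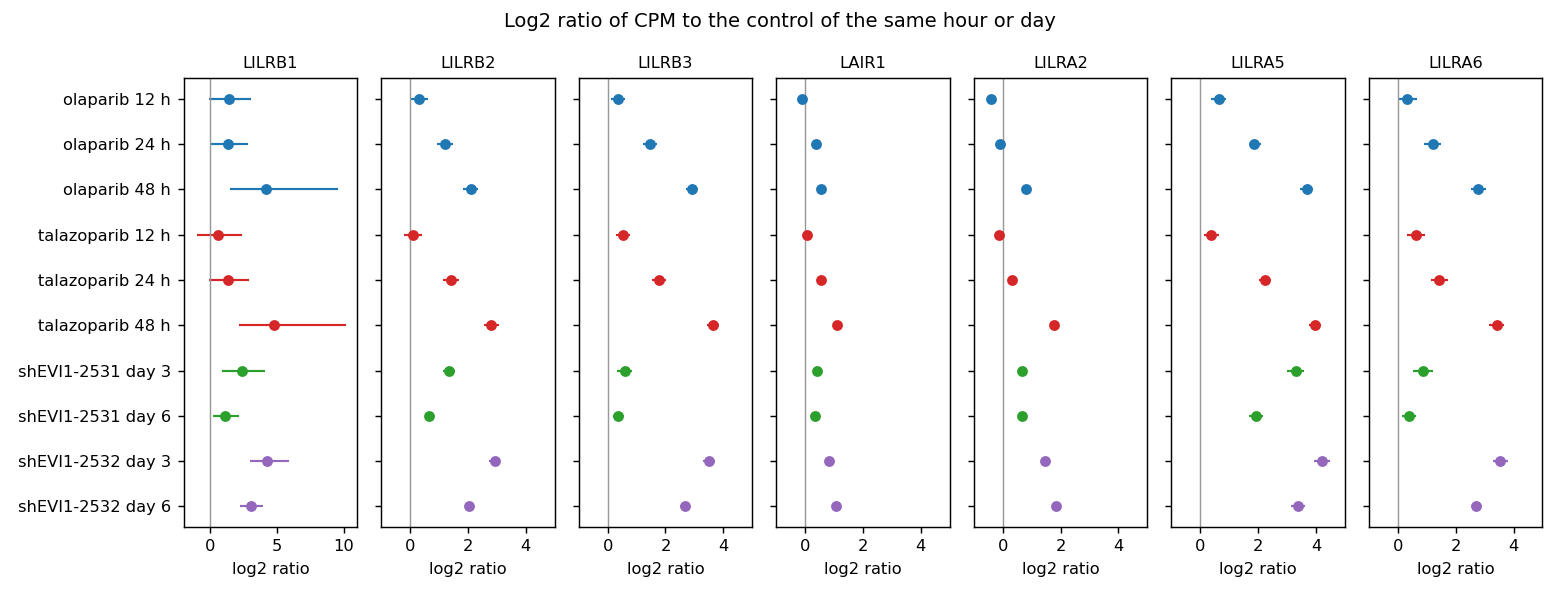
Log2 ratio of CPM to the control library of the same hour or day for each of 7 receptor genes, with 95% intervals that cover counting error only. Ratios grew from 12 to 48 h with both inhibitors and were larger with shEVI1-2532 than with shEVI1-2531 on both days for all 7 genes. The LILRB1 panel has its own, wider axis.

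The knockdown experiment asked what follows when EVI1 is reduced. The inhibitory receptor genes LILRB1, LILRB2, LILRB3 and LAIR1 had higher values with both shRNAs on both days than in the NTC library of that day, while LILRB4 stayed at 0 to 2 counts. LILRB3 was at 1.84 CPM on day 3 and 3.87 on day 6 in NTC, at 2.76 and 5.01 CPM with shEVI1-2531 and at 20.9 and 24.5 CPM with shEVI1-2532. The NTC library of day 6 lay above the shEVI1-2531 library of day 3, so these 2 groups overlapped, while both shEVI1-2532 libraries were clear of all others. LILRB2 was at 2.42 and 5.09 CPM in NTC, at 6.20 and 8.02 CPM with shEVI1-2531 and at 18.3 and 20.9 CPM with shEVI1-2532, in 3 ranges that did not overlap. LILRB1 had 5 and 14 counts in NTC, 20 and 32 with shEVI1-2531 and 78 and 106 with shEVI1-2532, also without overlap. LAIR1 was at 94.8 and 131 CPM in NTC, at 125 and 165 CPM with shEVI1-2531 and at 168 and 274 CPM with shEVI1-2532, with overlap between NTC and shEVI1-2531.

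The activating receptors followed the same order. LILRA5 was at 0.928 and 1.56 CPM in NTC, at 9.11 and 5.94 CPM with shEVI1-2531 and at 17.1 and 16.2 CPM with shEVI1-2532. It was the member that was lower on day 6 than on day 3 with either shRNA. LILRA6 was at 1.04 and 2.16 CPM in NTC, at 1.92 and 2.85 CPM with shEVI1-2531 and at 12.2 and 14.3 CPM with shEVI1-2532, again with the NTC library of day 6 above the shEVI1-2531 library of day 3. LILRA2 was at 32.6 and 43.6 CPM in NTC, at 51.4 and 69.5 CPM with shEVI1-2531 and at 90.5 and 155 CPM with shEVI1-2532, in 3 ranges without overlap.

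**Figure D3:**
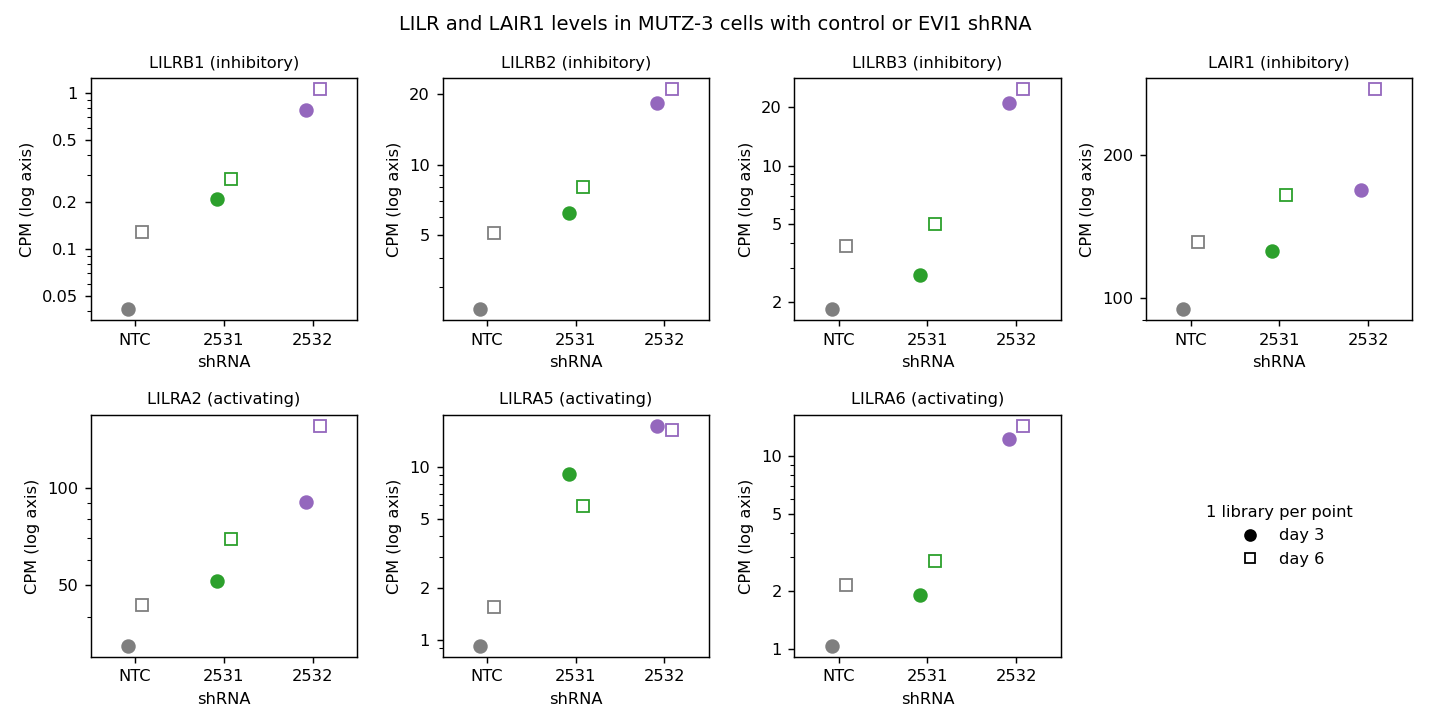
Level of 7 receptor genes in CPM on a log axis with NTC, shEVI1-2531 and shEVI1-2532, 1 library per point, filled for day 3 and open for day 6. Both shEVI1-2532 libraries lay above all other libraries for each of the 7 genes, and the NTC point of day 6 lay above that of day 3. The share of all genes set apart in this way was not counted.

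With the day as a term in the model, all 7 tested members rose with shEVI1-2532, against a background of 21.2% of 18606 genes called higher by edgeR. Their log2 fold changes were 4.05 ± 0.29 (SE) for LILRA5, 3.79 ± 0.44 for LILRB1, 3.42 ± 0.24 for LILRA6, 3.39 ± 0.22 for LILRB3, 2.76 ± 0.22 for LILRB2, 1.96 ± 0.15 for LILRA2 and 1.25 ± 0.14 for LAIR1, with adjusted p of at most 3.8e-05. LILRB1 passed the filter on low counts only with shEVI1 libraries, so a difference was built into its entry here too, and without it the count was 6 of 6. With shEVI1-2531, 6 of 7 rose, or 5 of 6 without LILRB1, against 9.49% of genes. LILRA5 rose by 2.77 ± 0.28 (adjusted p = 7.5e-05), LILRB1 by 1.75 ± 0.47 (0.0241), LILRB2 by 1.15 ± 0.22 (0.0033), LILRA2 by 0.83 ± 0.15 (0.0024), LILRA6 by 0.78 ± 0.23 (0.0351) and LAIR1 by 0.54 ± 0.14 (0.0185). LILRB3 had a value of 0.64 ± 0.21 and did not pass (adjusted p = 0.0565). Fewer members passed with shEVI1-2531 without the NTC library of day 3, where LILRB1 was at 1.28, LAIR1 at 0.57 and LILRA6 at 0.47. The same held without the shEVI1-2531 library of day 3, where they were at 1.57, 0.42 and 0.75. Each of these 2 fits leaves a group with 1 library. The mean of both shRNAs was higher than NTC for 7 of 7 members, or 6 of 6 without LILRB1, against 17.3% of genes, and each of these fits leaves 2 residual degrees of freedom. With both shRNAs entered as 1 group, edgeR called 0 of 7 members and 308 of all genes. Between single libraries, more than 1 log2 unit above NTC were 2 of the 6 members other than LILRB1 with shEVI1-2531 on day 3, where 5.74% of all genes were, and 1 of 6 on day 6, where 5.70% were. With shEVI1-2532 it was 5 of 6 on day 3, against 10.2%, and 6 of 6 on day 6, against 9.38%.

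The difference between the shRNAs was tested directly, and 7 of 7 members, or 6 of 6 without LILRB1, were higher with shEVI1-2532 than with shEVI1-2531, against 12.2% of genes. It was largest for LILRB3 at 2.75 ± 0.22 (SE) on the log2 scale (edgeR adjusted p = 1.4e-05) and for LILRA6 at 2.64 ± 0.23 (2.5e-05), the neighbouring near copies. LILRB1 followed at 2.04 ± 0.39, LILRB2 at 1.61 ± 0.21, LILRA5 at 1.28 ± 0.26, LILRA2 at 1.12 ± 0.15 and LAIR1 at 0.72 ± 0.14. As a share of the log2 effect of shEVI1-2532, the effect of shEVI1-2531 was 68.4% for LILRA5, 46.1% for LILRB1, 42.8% for LAIR1, 42.6% for LILRA2, 41.7% for LILRB2, 22.9% for LILRA6 and 18.9% for LILRB3. LILRA5 thus had the largest share, and whether the shares follow the MECOM transcript left by each shRNA was not tested. When LILRB3 and LILRA6 were summed into 1 gene, the sum was 3.40 ± 0.22 with shEVI1-2532 and 0.70 ± 0.20 with shEVI1-2531 (edgeR adjusted p = 0.0325).

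**Figure D4:**
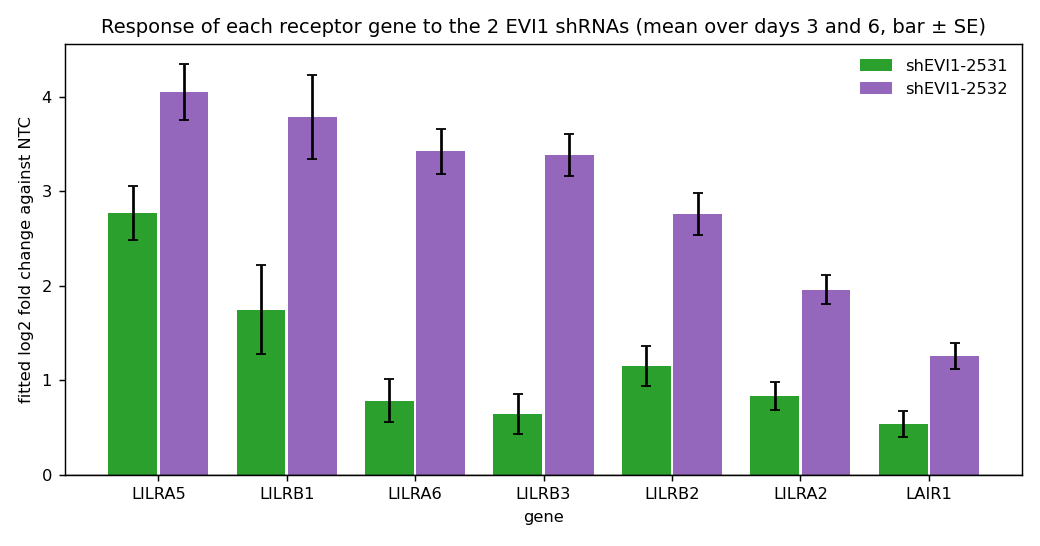
Fitted log2 fold change against NTC for shEVI1-2531 and shEVI1-2532, averaged over days 3 and 6, with the SE of the fit as error bars. The bars of LILRB3 and LILRA6 differ most between the shRNAs, and the bars of LILRA5 are the highest for both.

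The control cells themselves shifted between the days. In NTC, the 6 members other than LILRB1 were each higher on day 6 than on day 3, with a median log2 ratio of 0.90, where the median of all genes was 0.18. More than 1 log2 unit separated the days for 3 of the 6, against 9.75% of genes. LILRB2 and LILRB3 were both 2.10-fold and LILRA6 2.07-fold higher, and LILRB1 went from 5 to 14 counts. The libraries of each day were set against the NTC library of that day, so each ratio carries the NTC level of its day. The log2 ratios of LILRB1, LILRB2, LILRB3, LILRA5 and LILRA6 to NTC were smaller on day 6 than on day 3 with both shRNAs. The fitted fold changes above average both days and therefore include this shift.

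The share of activating members, LILRA2, LILRA5 and LILRA6 together, in the summed level of all 8 genes per kilobase is a way to set activating against inhibitory transcripts. It was 33.0% in untreated cells and 25.0%, 32.9% and 33.5% with DMSO at 12, 24 and 48 h. With olaparib it was 26.8%, 39.3% and 56.6%, and with talazoparib 25.6%, 42.3% and 54.9%. In NTC it was 35.2% on day 3 and 34.6% on day 6, with shEVI1-2531 46.3% and 42.2%, and with shEVI1-2532 49.8% and 48.4%. From 24 h on, every inhibitor library and every shEVI1 library had a larger share than each control library. The inhibitory part of this sum is mostly LAIR1, and LILRA5 contributed most to the gain at 48 h.

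**Figure D5:**
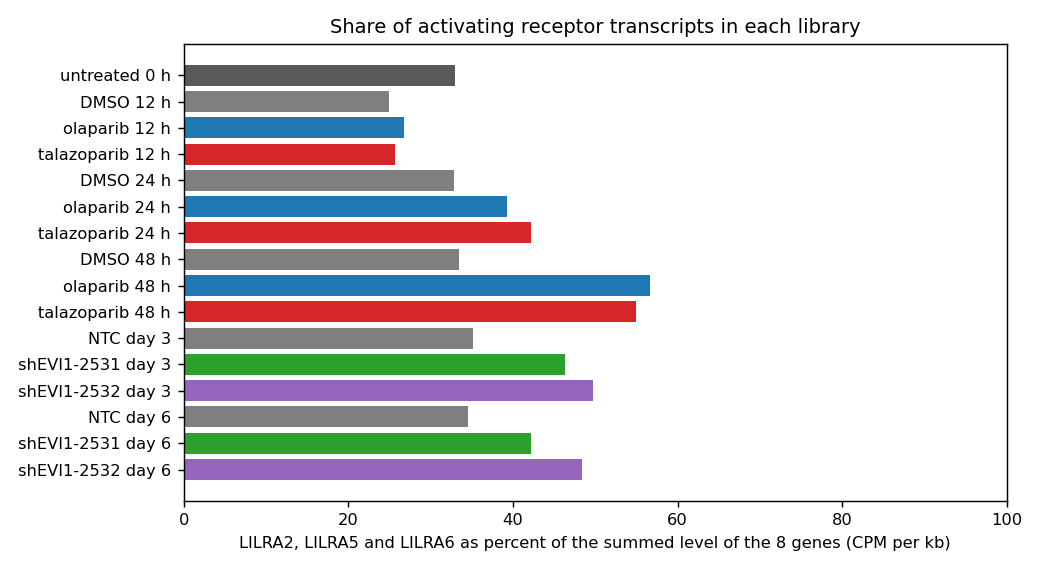
Transcripts of the activating receptors LILRA2, LILRA5 and LILRA6 as a percentage of the summed CPM per kilobase of all 8 receptor genes, 1 bar per library. The share was between 25.0% and 35.2% in the control libraries and reached 56.6% with olaparib at 48 h and 49.8% with shEVI1-2532 on day 3.

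Across the 16 libraries, centred within each experiment, the log2 levels of the 7 members had Pearson correlations of 0.69 to 1.00 over the 21 pairs, with a median of 0.86. The closest pair was LILRB3 with LILRA6, at 0.995, which share sequence, and the loosest LILRB1 with LILRA2, at 0.686. These points share treatments and controls and are a description only. Of 8991 other genes tested in both experiments with a mean log2 CPM above 3, those with a profile close to the mean of the members included LRRC25 at 0.979, FCGR2A at 0.979, BRI3 at 0.978 and ICAM3 at 0.978. Within the inhibitor experiment alone these 4 ranked 20 to 46, and within the knockdown experiment alone 30 to 73.

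Of the other receptors of the family, LILRA1 is an activating member with low levels. It was at 1.66, 1.43 and 1.24 CPM with DMSO and at 1.48, 1.17 and 2.91 CPM with talazoparib at 12, 24 and 48 h, and at 1.54 and 2.65 CPM in NTC and 5.52 and 6.50 CPM with shEVI1-2532. It rose by 1.87 ± 0.23 (SE) on the log2 scale with shEVI1-2532 and by 1.12 ± 0.22 with shEVI1-2531 (edgeR adjusted p = 5.0e-05 and 0.0053). LILRA4, a receptor of plasmacytoid dendritic cells, had at most 1.07 CPM, and LAIR2, the soluble relative of LAIR1, at most 0.21 CPM. LILRB5 had too few counts to test. Of these 5 genes 2 were tested in the inhibitor experiment and 3 in the knockdown. LILRA1 was the gene that passed with the change over time (0.74 ± 0.23), where 10.0% of all genes were called higher. LILRA1 and LAIR2 passed with shEVI1-2532, where 21.2% of all genes were called higher. LAIR2 was so low that the filter on low counts may have let it in only through shEVI1 libraries, so its call is no support.

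Other Ig-like receptors of the same complex moved less uniformly. OSCAR, a collagen receptor of the osteoclast lineage, was at 28.1, 28.2 and 32.3 CPM with DMSO and at 37.8, 50.9 and 85.7 CPM with talazoparib, and rose by 1.55 ± 0.14 with shEVI1-2532. FCAR, the receptor for IgA, was at 26.0 CPM with DMSO and 105 CPM with talazoparib at 48 h, and rose by 1.54 ± 0.19 with shEVI1-2532. It had a value of -0.43 ± 0.19 with shEVI1-2531 that did not pass (edgeR adjusted p = 0.144). GP6, the platelet collagen receptor, fell by 2.11 ± 0.37 with shEVI1-2532, where 19.9% of all genes were called lower. Of the 6 receptors in this list, 3 rose further with time on the inhibitors, which were FCAR, OSCAR and VSTM1, where 10.0% of all genes did. With shEVI1-2532, 3 rose and 1 fell of 5 tested, where 21.2% and 19.9% of all genes did, and the median log2 fold change was 1.54 where that of all genes was 0.00.

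Genes without receptor function next to the cluster are given for description, and a shift of the whole locus was not tested. Of 11 tested neighbours, 4 rose further with time on the inhibitors, namely MBOAT7, TSEN34, RPS9 and TFPT, where 10.0% of all genes did. With shEVI1-2532 4 of 12 rose and 3 fell, where 21.2% and 19.9% of all genes did. The slopes of these 4 were 0.39 to 0.57 per doubling of time, a range that held the slope of LAIR1 at 0.53, and those of the 5 LILR members that passed were 0.88 to 1.76. RPS9, which overlaps LILRB3 and LILRA6, was at 1622 CPM with DMSO and 2657 CPM with talazoparib at 48 h, and rose by 0.64 ± 0.14 with shEVI1-2532. MBOAT7, an acyltransferase for phosphatidylinositol, fell by 0.60 ± 0.16 with shEVI1-2532, and the splicing factor gene PRPF31 fell by 0.64 ± 0.15.

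Genes for the partners that carry the signal are given by role. FCER1G, the signalling chain of the LILRA receptors, was at 69.2, 64.4 and 74.0 CPM with DMSO, at 87.7, 164 and 259.6 CPM with talazoparib, at 87.9 and 97.6 CPM in NTC and at 262 and 234 CPM with shEVI1-2532. TYROBP, the adaptor DAP12 of other myeloid receptors, was at 149 CPM with DMSO and 834 CPM with talazoparib at 48 h, and rose by 2.49 ± 0.14 with shEVI1-2532. FGR, a Src family kinase of myeloid cells, rose by 3.63 ± 0.21 with shEVI1-2532 and by 3.34 ± 0.21 with shEVI1-2531. Of 7 activating partners, 5 rose further with time on the inhibitors, and 6 rose with shEVI1-2532 and 4 with shEVI1-2531, where 10.0%, 21.2% and 9.49% of all genes did. SYK did not pass with time, and LYN did not pass in any of these comparisons.

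For the enzymes used by the inhibitory receptors, few calls were made. None of PTPN6, which encodes SHP-1, PTPN11, which encodes SHP-2, INPP5D, the lipid phosphatase SHIP1, and the kinase CSK passed with time on the inhibitors in edgeR. The smallest adjusted p was that of PTPN11, at 0.0523 with a slope of -0.33 ± 0.13. With shEVI1-2532, PTPN6 rose by 0.41 ± 0.14 and INPP5D by 0.52 ± 0.14, while PTPN11 fell by 0.48 ± 0.15 on the log2 scale. The slope of the kinase CSK was -0.15 ± 0.13 per doubling of time.

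MHC class I, the ligand of LILRB1, LILRB2 and other LILRs, rose beside the receptors with time on the inhibitors and with shEVI1-2532. HLA-B was at 94.1 CPM with DMSO and 440.3 CPM with talazoparib at 48 h, and at 82.6 and 133 CPM in NTC and 160.04 and 209.6 CPM with shEVI1-2532. B2M, the light chain, was at 1169 CPM with DMSO and 3252 CPM with talazoparib at 48 h. HLA-B, HLA-C, HLA-E, HLA-F and B2M rose further with time on the inhibitors, where 10.0% of all genes did, and HLA-G had a slope of 0.39 that did not pass. All 6 of these genes rose with shEVI1-2532, where 21.2% of all genes did. HLA-C was the one of them that rose with shEVI1-2531, where 9.49% of all genes did. HLA-F and HLA-G were low, at no more than 5.13 and 1.54 CPM. Of 9 other ligands 4 could be tested, and the collagen genes COL1A1, COL1A2, COL3A1 and COL17A1, which encode ligands of LAIR1 or related chains, had too few counts.

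Most markers of monocytes moved with the receptors. The summed level of 8 monocyte genes was between 878 and 1059 CPM in the 3 DMSO libraries, reached 6995 CPM with olaparib and 10427 CPM with talazoparib, and was 1072 and 1353 CPM in NTC and 3659.6 and 4604 CPM with shEVI1-2532. Most of it was S100A8 and S100A9. CD14 was at 2.86 CPM with DMSO and 82.2 CPM with talazoparib at 48 h, and CSF1R at 241 and 158 CPM. Of the 8, 6 rose further with time on the inhibitors and 6 rose with each shRNA, where 10.0% of all genes rose with time, 21.2% with shEVI1-2532 and 9.49% with shEVI1-2531. CSF1R had a slope of -0.32 ± 0.13 with time that did not pass, and CD163 did not pass either. With the shRNAs, CSF1R and VCAN did not pass, at -0.32 and -0.37 with shEVI1-2531 and at 0.32 and 0.12 with shEVI1-2532. CD163 had under 3 counts in untreated cells. The 4 progenitor genes summed to 441 to 585 CPM with DMSO and 122 to 612 CPM with talazoparib, to 381 and 832 CPM in NTC and to 16.3 and 18.7 CPM with shEVI1-2532. MECOM, which is part of this sum, is the target of the shRNAs, so its fall with them is the knockdown itself. With shEVI1-2531, CD34 and PROM1 fell too, where 1470 of 18606 genes were called lower. KIT rose by 0.71 ± 0.20 on the log2 scale (edgeR adjusted p = 0.0321), where 9.49% of all genes were called higher. The 4 genes of neutrophil precursors summed to 1496 to 2708 CPM with DMSO and 699 to 1651 CPM with talazoparib. They summed to 3459 and 3706 CPM in NTC and 2761 and 4376 CPM with shEVI1-2532. With shEVI1-2532, 3 of the 4 rose, while MPO had a value of -0.37 ± 0.19 that did not pass. With shEVI1-2531, 1 rose and ELANE fell by 2.81 ± 0.22, where 1470 of 18606 genes were called lower. With time on the inhibitors 0 rose, and ELANE and MPO fell, where 1691 of 17218 genes were called lower. The 4 genes of plasmacytoid dendritic cells summed to 59.7 to 66.7 CPM with DMSO and 62.5 to 78.2 CPM with talazoparib, to 50.6 and 58.5 CPM in NTC and to 81.5 and 85.8 CPM with shEVI1-2532. The part of these shifts in the receptor changes was not tested.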

How the data were processed

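RNA of MUTZ-3 cells was sequenced by the authors as 100-base paired-end reads from TruSeq Stranded mRNA libraries, 16 in all. The submitters' processing notes name STAR, Picard and featureCounts and the build GRCh38 (hg38). Versions and the strand setting of the counting were not given in the sources used here, so reads of overlapping genes on opposite strands may not be told apart. The deposited tables give, for each gene and library, a raw count and a TPM value made by the authors. The deposited TPM values were read and used for no result. Each condition had 1 library, and p-values measure only the spread of single libraries around the model.

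CPM is a gene's count scaled by the library total, and per kilobase values divide it by the union of exons in GENCODE 29. Counts were fitted with edgeR 4.0.16 (TMM scaling, quasi-likelihood test, Benjamini-Hochberg adjustment over all tested genes, threshold 0.05) in R 4.3.3, after a filter of at least 10 counts in at least 3 inhibitor or 2 knockdown libraries. The 9 libraries with DMSO, olaparib or talazoparib were modelled with the hour as a factor. The change with time added the interaction with the log2 of the hour. The 6 knockdown libraries were modelled with the day and the shRNA. Comparisons of the inhibitors share the DMSO libraries, and those of the shRNAs share NTC. Ratios between single libraries carry exact binomial 95% intervals, which cover counting error only, and medians over all genes used a pseudocount of 0.5 counts. Profiles for correlations used log2 CPM with a prior count of 2. Alternatives were DESeq2 1.42.0, other scaling, no filter, a threshold of 0.01 and leaving out libraries. The procedure was tested on simulated counts. Motifs were searched on both strands in RefSeq promoters.

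The members and the gene lists were chosen with earlier results of these data known. All 8 members were reported in every comparison, and list genes were named in the order of their lists, up to 10 of each, whether or not they passed. The genes most like the members were the 5 with the highest correlation. A few items that these rules would name are not reported here. LILRB3 and LILRA6 were also fitted as a sum. LILRA3 and the LILRA6 promoter were not analysed here.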

Additional observations from a re-analysis of the deposited data

Results flagged for a closer look

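The effect of the inhibitors differed between time points for 6 members, by the test of the change per doubling of time. Of all genes, 10.0% were called higher in this test. The log2 changes were 1.76 for LILRA5, 1.52 for LILRB3, 1.42 for LILRA6, 1.23 for LILRB2, 0.88 for LILRA2 and 0.53 for LAIR1.

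The effect of the knockdown differed between the shRNAs for all 7 tested members, by the test of the difference itself. The excess of shEVI1-2532 over shEVI1-2531 was 2.75 for LILRB3, 2.64 for LILRA6, 2.04 for LILRB1, 1.61 for LILRB2, 1.28 for LILRA5, 1.12 for LILRA2 and 0.72 for LAIR1 on the log2 scale.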

How the results depend on the processing

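Calls of the mean inhibitor effects depended most on the processing. With both inhibitors averaged, edgeR called 718 genes. The count was 3474 with DESeq2, 3728 without a filter, 18 at an adjusted p of 0.01 and 16 without the time point, and it ranged from 0 to 4720 when libraries were left out. Members called went from 0 to 5 with DESeq2 and 6 without a filter, and from 0 to 6 with libraries left out. For olaparib, 110 genes were called, with 669, 977, 6 and 0 in the same order and 0 to 1764 with libraries left out. Members called went from 0 to 4 without a filter, and from 0 to 4 with libraries left out. For talazoparib, 688 genes were called, with 3740, 3876, 9 and 12 and a range of 0 to 5005. Members called went from 0 to 6 with DESeq2 and 6 without a filter, and from 0 to 7 with libraries left out. For the change with time, 3412 genes were called, 2199 at 0.01 and 258 to 3817 with libraries left out, and 3 to 6 members. The 258 was without DMSO at 48 h, and without DMSO or olaparib at 12 h LAIR1 lost its call.

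For the mean of both shRNAs, 6380 genes were called, 3880 at 0.01, 308 with both as 1 group and 3563 to 6720 with libraries left out. Members called went from 7 to 0 with both as 1 group and stayed at 7 with any library left out. For shEVI1-2532, 7648 genes were called, 4963 at 0.01 and 5322 to 8482 with libraries left out, with 7 members in each. For shEVI1-2531, 3235 genes were called, 1563 at 0.01 and 1830 to 3885 with libraries left out. Members called went from 6 to 3 at 0.01 and from 3 to 7 with libraries left out. For the difference between the shRNAs, 4505 genes were called, 2334 at 0.01 and 2861 to 4972 with libraries left out, with 7 members in each. The cause was not tested for any of these. The counts of 7 members include LILRB1, which passed the filter on low counts only through inhibitor or shEVI1 libraries.

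Directions changed for LILRA2 and LAIR1. The mean inhibitor effect on LILRA2 was -0.076 without the libraries of 48 h and -0.083 without DMSO at 48 h, and the olaparib effect was -0.25 and -0.38. With libraries left out, these effects reached 0.76 and 0.45, both without DMSO at 12 h. The log2 ratio of LAIR1 with olaparib at 12 h was 0.42 against untreated cells in place of DMSO. Of 764 alternative fits of a member's log2 fold change, 646 kept direction and side of the threshold, 91 gained the call, 23 lost it and 4 changed direction. No paired analysis was possible because the labels give no replicate numbers and each condition is 1 library. With 1 library per condition, variation between cultures is unknown, and LILRB1 and LILRB4 are limited by their low counts.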
